A study of Mus musculus with 23 samples.

Results

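The genes described here are the matrix metalloproteases (Mmp), the ADAMTS proteases (a disintegrin and metalloprotease with thrombospondin motifs) and the tissue inhibitors of metalloproteases (Timp) in the adult mouse sciatic nerve (SN). Members were all protein-coding genes whose GRCm38 symbol is Mmp or Adamts followed by a number, or Timp1 to Timp4. This gave 45 genes, namely 22 Mmp, 19 Adamts and 4 Timp genes, out of 43068 genes listed for the crush libraries and 22880 for the iKO libraries, and both lists held all 45. Mmp1a, annotated as a polymorphic pseudogene, was left out. RNA sequencing had been carried out on whole nerves from 2 experiments. In the crush experiment, 2-month-old male C57BL/6J mice received an SN crush, and the segment distal to the crush was taken at 3 days post crush (dpc, n = 4), along with the uninjured nerves of the opposite side (contralateral, n = 4) and nerves of mice without a crush (uncrushed, n = 3). The iKO experiment compared inducible knockouts at 3 months post tamoxifen (mpT), in which P0-CreERT2 was used to recombine floxed alleles of Dicer (Dicer iKO, n = 3) or Dgcr8 (Dgcr8 iKO, n = 3), with their Cre-negative controls (n = 3 for each gene). Controls and mutants alike had been given tamoxifen at 8 to 10 weeks of age. The P0 promoter drives the Cre in Schwann cells, and the other cells of the nerve are meant to keep their alleles. The mutant mice were of either sex and had been selected for affected nerve morphology. Dicer cuts microRNA precursors and Dgcr8 is the RNA-binding partner of Drosha in the microprocessor, so recombined cells of both mutants lose most mature microRNAs.

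MMPs are zinc-dependent enzymes that are made as inactive proforms and cut collagens, laminins and other matrix proteins once their propeptide is removed. Several ADAMTS proteases act on proteoglycans such as aggrecan and versican, while ADAMTS2, ADAMTS3 and ADAMTS14 trim the N-propeptide of procollagens. TIMPs block the active site of these enzymes, and TIMP3, which is held in the matrix, also acts on ADAMTS4, ADAMTS5 and several ADAM proteases. In an injured nerve, the basal lamina tubes that Schwann cells leave behind guide the regrowing axons, and matrix breakdown accompanies the clearance of myelin and the entry of leukocytes.

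Total counts per library were between 5594859 and 12806066, and 3 counts corresponded to 0.234 to 0.453 CPM (counts scaled to library size) in the crush experiment and to 0.296 to 0.536 CPM in the iKO experiment. Values below these limits are at the floor of detection, and both limits cover counting error only. CPM values are scaled within each experiment and are not compared between experiments, whose libraries were made with different kits by their labels. According to the methods, replicates of a group were separate mice, while the sources used here do not say which crushed and contralateral nerves shared a mouse. Nerve values are listed in the order of the replicate numbers, which the main tests did not use to pair nerves. Dicer1 was at 81.9 ± 0.415 CPM (SD) in the Dicer iKO nerves against 88.7 ± 1.66 in their controls, and Dgcr8 at 45.1 ± 7.84 in the Dgcr8 iKO nerves against 38.5 ± 3.20. Dicer1 was lower in every Dicer iKO nerve than in any of its controls (81.4 to 82.2 against 87.5 to 90.6 CPM). The Dgcr8 ranges overlapped (39.4 to 54.0 CPM in Dgcr8 iKO nerves against 35.4 to 41.8). Whole-gene counts of nerves with several cell types thus show a small drop for Dicer1 and none for Dgcr8. They do not measure the loss in Schwann cells, and the nerves are named by their labels. By PCR, the paper reports reduced mRNA of the targeted gene in each mutant, and less of an abundant microRNA. The sum of 6 Schwann cell markers was 1843 to 2712 CPM in the crushed nerves against 27948 to 38271 in the other nerves of that experiment, and 10039.7 to 17989 in the mutants against 18510.4 to 29472 in their controls. The 6 macrophage markers summed to 544 to 1391 CPM in the crushed nerves and 76.3 to 139 in the uninjured ones, and to 2269 to 6385 in the mutants and 231 to 845 in their controls. The sum of 5 fibroblast markers was lower in the crushed nerves (1480.2 to 1695 against 1953 to 2399 CPM) and higher in the mutants (5771 to 7895 against 1632 to 3898), but its genes did not move together. Upregulated were 2 of 5 in Dicer iKO (Col1a1 and Lum) and 3 of 5 in Dgcr8 iKO nerves (also Dpt), while Pdgfra had medians of 318 against 461 CPM and 234 against 266. After crush only Col14a1 was called, as downregulated, and Lum had a median of 272 CPM in crushed, 160.4 in contralateral and 224 in uncrushed nerves. In whole nerves, a change in the number of cells of a type and a change in RNA per cell cannot be told apart. The Dicer control nerves differed among themselves: nerves 1, 2 and 3 had fibroblast sums of 3898, 3007 and 1632 CPM and macrophage sums of 845, 486 and 243 CPM.

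**Figure D1:**
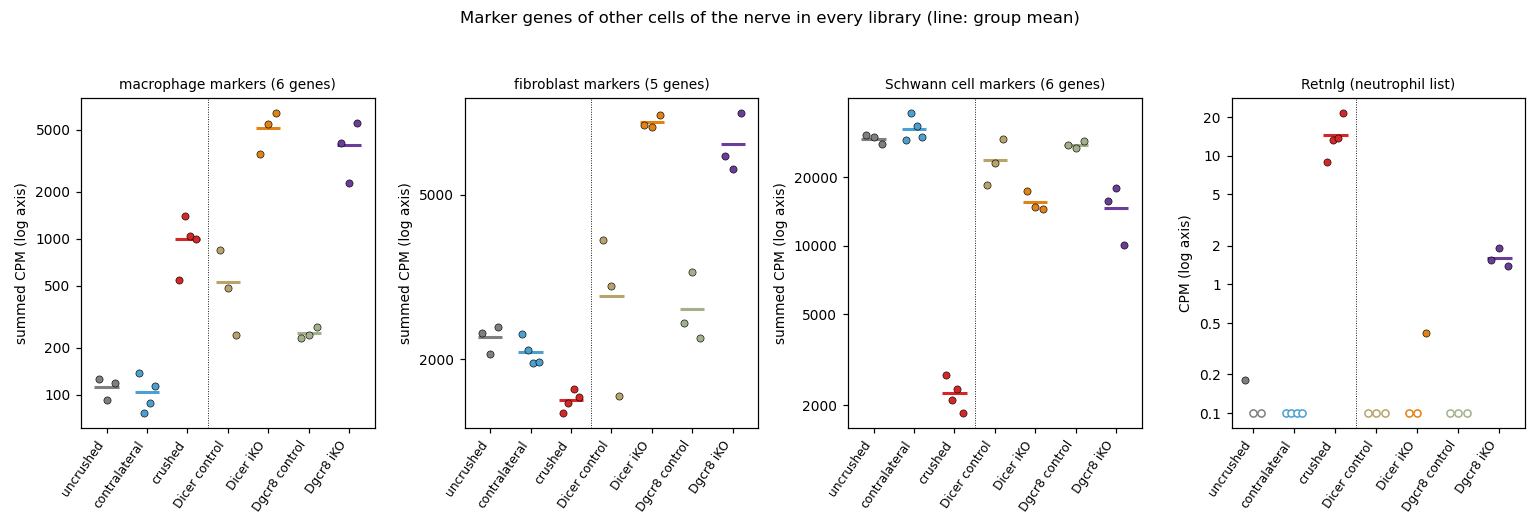
Each point is 1 nerve, on log axes that differ between panels, with CPM summed over the marker genes named above each panel (the last panel is the single gene Retnlg). Lines are group means, open points at 0.1 are nerves with 0 counts, and the dotted line separates the crush from the iKO experiment. Macrophage markers were higher in the crushed and in the mutant nerves, the fibroblast sum was higher in the mutant nerves, and the third Dicer control nerve had the lowest fibroblast sum of its group. Retnlg is 1 of 8 neutrophil markers, whose sum is not shown. That sum was 27.8 to 38.4 CPM in crushed and 19.8 to 41.0 in uninjured nerves, and was lower in both mutants than in their controls.

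A group of 9 Mmp genes lies side by side on chromosome 9 (chr9:7272514-7699585, GRCm38), and promoters of the group are shown because an AP-1 site close to the start is a known feature of many MMP promoters. In a search of RefSeq promoters (GRCm38.p6, 250 bases before to 50 bases after a start), 31 of the 45 members had a window. Adamts4, Adamts5, Adamts6, Adamts7, Adamts8, Adamts10, Adamts15, Adamts16, Adamts19, Mmp2, Mmp9, Mmp16, Mmp17 and Mmp19 had none. The letters TGACTCA or TGAGTCA, which are each other's reverse complement and form the site bound by AP-1 (dimers of Fos and Jun proteins), stood in the windows of 6 members, all 6 of them among the 9 genes of that chromosome 9 group. Of all 27025 genes with a window, 5.95% held these letters. The letters TATAAA, read on both strands, stood in the windows of 8 of the 9 genes and in 15.7% of all genes. The stretches below run 5′ to 3′ from 100 bases before to 20 bases after the start, with the AP-1 letters in capitals. Mmp27 and Timp1, which are described below for their changes, are shown for contrast and have no such letters in this window. Mmp12 has 2 windows, of which the one with the letters is given.
Mmp13, chr9:7272414-7272533, plus strand: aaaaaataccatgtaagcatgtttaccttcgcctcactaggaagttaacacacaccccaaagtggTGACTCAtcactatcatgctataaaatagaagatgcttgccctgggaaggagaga
Mmp12, chr9:7347274-7347393, plus strand: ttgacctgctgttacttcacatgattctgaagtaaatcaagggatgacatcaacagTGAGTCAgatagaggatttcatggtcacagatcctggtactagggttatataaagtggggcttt
Mmp1b, chr9:7388007-7388126, minus strand: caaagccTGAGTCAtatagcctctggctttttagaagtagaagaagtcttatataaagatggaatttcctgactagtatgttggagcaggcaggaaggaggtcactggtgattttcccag
Mmp3, chr9:7445722-7445841, plus strand: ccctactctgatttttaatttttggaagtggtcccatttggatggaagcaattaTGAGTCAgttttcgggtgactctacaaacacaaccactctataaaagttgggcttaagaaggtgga
Mmp10, chr9:7502242-7502361, plus strand: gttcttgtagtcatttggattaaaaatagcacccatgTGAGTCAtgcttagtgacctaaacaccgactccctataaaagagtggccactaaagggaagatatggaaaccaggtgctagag
Mmp7, chr9:7691990-7692109, plus strand: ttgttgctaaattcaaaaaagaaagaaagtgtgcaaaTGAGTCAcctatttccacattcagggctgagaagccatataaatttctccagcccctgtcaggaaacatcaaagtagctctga
Mmp27, chr9:7571296-7571415, plus strand: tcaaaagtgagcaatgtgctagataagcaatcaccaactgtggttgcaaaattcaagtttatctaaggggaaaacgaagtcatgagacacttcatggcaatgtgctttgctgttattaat
Timp1, chrX:20870066-20870185, plus strand: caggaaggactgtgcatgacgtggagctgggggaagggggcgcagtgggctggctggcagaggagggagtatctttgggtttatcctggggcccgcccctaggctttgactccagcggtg
The AP-1 letters began 35 bases before the start in Mmp13, 44 in Mmp12, 46 in Mmp3, 63 in both Mmp10 and Mmp7, and 93 in Mmp1b. Of these 6 genes only Mmp12 was detected well enough to be tested in any comparison. Mmp13, Mmp1b, Mmp3, Mmp10 and Mmp7 stayed below 2 CPM in all 23 nerves. The presence of letters says nothing of binding in these nerves.

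Levels per gene length are given as FPKM (fragments scaled to transcript length and library size, summed over the transcripts of a gene) and compared within an experiment. TIMPs made up most of the summed level of the 45 genes in each group except the mutants, from 56.7% ± 5.75 (SD, n = 3) in the Dicer controls to 63.4% ± 1.91 (n = 4) in the crushed nerves, against 44.2% ± 1.81 and 46.01% ± 2.56 in the Dgcr8 and Dicer iKO nerves. Timp3 led the uncrushed nerves at 169 ± 14.6 FPKM, ahead of Timp2 (105 ± 13.9), the membrane-type protease Mmp15 (51.8 ± 3.01), the gelatinase Mmp2 (41.01 ± 4.45) and the versican-cutting Adamts20 (25.7 ± 3.29). The first 3 of these did not overlap from nerve to nerve, and Mmp15 was above Mmp2 as well. Crushed nerves had another order, with Timp3 at 269.7 ± 27.9 FPKM, Timp1 at 137 ± 3.09, Timp2 at 98.3 ± 16.4, Mmp14 at 69.6 ± 5.06 and Mmp2 at 46.2 ± 8.41. Neighbours in this order did not overlap. Timp1 rose from 0.221% ± 0.0560 of the summed TIMP level in uncrushed nerves to 27.1% ± 0.758 in crushed ones. In the mutants it made up 7.28% ± 1.82 (Dicer iKO) and 12.6% ± 0.996 (Dgcr8 iKO), against 0.565% ± 0.176 and 0.313% ± 0.0956 in their controls. Mmp2 was the protease with the highest level in both mutants, at 227 ± 23.2 (Dicer iKO) and 187 ± 14.8 FPKM (Dgcr8 iKO), where its range met those of Timp2 and Timp3. The 22 Mmp genes together reached 419.9 ± 54.6 and 441 ± 59.6 FPKM in the Dicer and Dgcr8 iKO nerves, and 225 ± 48.7 and 197 ± 30.04 in their controls.

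**Figure D2:**
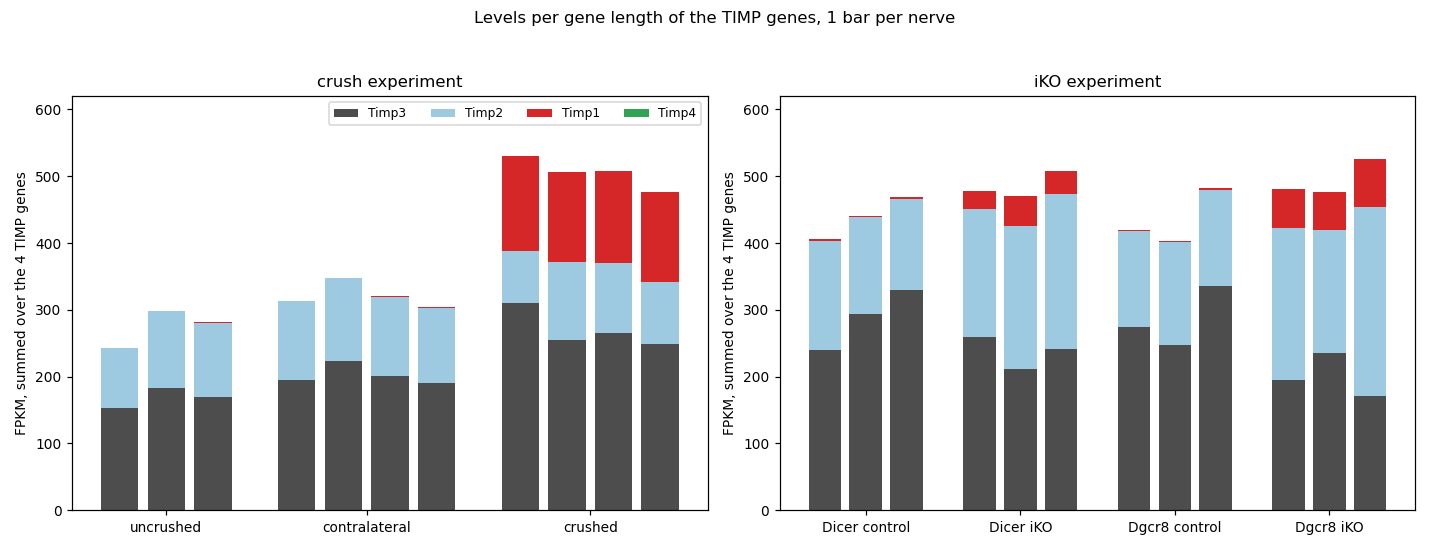
Each bar is 1 nerve and stacks the FPKM of the TIMP genes, with the crush experiment on the left and the iKO experiment on the right. Timp1 is all but invisible in uninjured nerves and controls, takes 27.1% of the sum in crushed nerves and 12.6% in Dgcr8 iKO nerves, while Timp3 and Timp2 are present in every nerve.

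The first question was which of these genes respond to injury at 3 dpc. A gene was called when its adjusted p was at most 0.05 (edgeR's quasi-likelihood test, Benjamini-Hochberg adjustment over all genes tested) and its change at least 2-fold. Against uncrushed nerves, the test covered 33 members, with 9 upregulated and 7 downregulated. The shares of members called were 27.3% and 21.2%, where 15.3% of all tested genes were upregulated and 21.1% downregulated. By adjusted p alone 12 members were higher and 10 lower, beside 33.8% and 33.4% of all genes. Against contralateral nerves, 31 members were tested, 10 upregulated and 5 downregulated, and the shares over all genes were 14.6% and 13.6%. By adjusted p alone these were 14 and 8 members, beside 33.5% and 32.9% of all genes. Both comparisons share the 4 crushed nerves, and 9 members were upregulated and 5 downregulated in both. The same overlap was not counted over all genes. Over the tested members the median was 0.06 (uncrushed) and 0.08 (contralateral) on the log2 scale, near the medians of all genes (-0.03 and -0.06).

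Timp1 had the largest change among the tested members. This secreted inhibitor (ENSMUSG00000001131, chrX:20870166-20874735) stood at 97.8, 98.96, 94.7 and 90.1 CPM in the crushed nerves, at 0.189, 0.315, 0.403 and 0.412 in contralateral and at 0.542, 0.377 and 0.515 in uncrushed nerves. All crushed nerves lay far above the others, most of which were at or near the floor. On 4410 counts in crushed and 12 counts in all uncrushed nerves, the ratio was 198 with a 95% counting interval of 113 to 384. Against contralateral nerves (14 counts) it was 293 (174 to 536). The fitted log2 fold changes were 7.69 ± 0.16 (SE, adjusted p = 2.57e-11) and 8.16 ± 0.14 (adjusted p = 6.82e-14). Timp3, the matrix-bound inhibitor, was at 1307, 1139, 1112 and 1007 CPM in crushed, 869, 1017, 915 and 875 in contralateral and 752, 856 and 862 in uncrushed nerves. It was higher by less than 2-fold in both tests (log2 fold change 0.58 ± 0.12, adjusted p = 0.00102 and 0.33 ± 0.10, adjusted p = 0.00967), and 1 crushed nerve overlapped the contralateral range. Timp2, which inhibits MMP2 and also takes part in its activation on the cell surface, was at 169, 237, 206 and 179 CPM in crushed, 296, 327, 304 and 272 in contralateral and 254, 283 and 296 in uncrushed nerves. All crushed values lay below the others, with a log2 fold change of -0.38 ± 0.11, adjusted p = 0.0102 and -0.59 ± 0.10, adjusted p = 0.000128. Timp4 was at 0 to 0.515 CPM in all nerves of this experiment and was not tested.

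Of the gelatinases, which cut denatured collagen and basement membrane collagen, Mmp9 rose and Mmp2 did not pass the test. Mmp9 was at 12.2, 15.7, 17.2 and 23.5 CPM in crushed, 0.947, 0.788, 1.01 and 0.309 in contralateral and 1.17, 1.38 and 1.201 in uncrushed nerves, with no overlap. Its log2 fold change was 3.86 ± 0.29, adjusted p = 2.63e-07 against uncrushed and 4.47 ± 0.29, adjusted p = 5.05e-09 against contralateral nerves. Neutrophils store MMP9 protein in granules, and Retnlg, one of the 8 neutrophil markers, was at 9.01, 13.3, 13.7 and 21.5 CPM in the same crushed nerves, at 0.181, 0 and 0 in uncrushed nerves and at 0 in all contralateral nerves. The order of the 4 crushed nerves was the same for Retnlg as for Mmp9. S100a8, S100a9, Ly6g, Ngp, Ltf and Camp, the other granule and surface markers, were below 1 CPM in every nerve of this experiment, and the eighth marker, Cxcr2, was lower in crushed than in uninjured nerves. The sum of the 8 was 27.8 to 38.4 CPM in crushed and 19.8 to 41.00 in uninjured nerves, and the part of these cells in the Mmp9 result was not tested. Mmp2 was at 93.4, 136, 136 and 140.4 CPM in crushed, 161, 108, 98.6 and 116 in contralateral and 119.8, 122 and 152 in uncrushed nerves (log2 fold change 0.06 ± 0.14, adjusted p = 0.731 and 0.08 ± 0.15, adjusted p = 0.642). The groups overlapped.

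Membrane-bound MMPs split in direction. Mmp14 (MT1-MMP), a collagenase that also activates proMMP2, was at 151, 176, 170.0 and 142 CPM in crushed, 33.04, 30.2, 25.1 and 28.2 in contralateral and 25.8, 25.6 and 24.02 in uncrushed nerves. It rose in both tests, with a log2 fold change of 2.76 ± 0.11, adjusted p = 8.54e-10 against uncrushed and 2.47 ± 0.10, adjusted p = 2.65e-11 against contralateral nerves. Mmp17, which is held on the membrane by a lipid anchor, was at 47.00, 37.4, 40.2 and 30.1 CPM in crushed, 12.7, 18.9, 14.4 and 15.8 in contralateral and 17.9, 15.2 and 16.8 in uncrushed nerves, with a log2 fold change of 1.32 ± 0.14, adjusted p = 6.86e-06 and 1.33 ± 0.14, adjusted p = 1.34e-06. Neither gene's crushed values overlapped with those of uninjured nerves. In the other direction, Mmp15 (MT2-MMP) was at 35.2, 32.6, 34.02 and 25.1 CPM in crushed, 238, 352, 291 and 249 in contralateral and 241, 242 and 234 in uncrushed nerves. It had the largest drop among the tested members, with a log2 fold change of -2.81 ± 0.11, adjusted p = 1.12e-09 and -3.14 ± 0.14, adjusted p = 1.19e-10. Mmp16 (MT3-MMP) was at 3.62, 3.02, 3.95 and 3.22 CPM in crushed, 7.20, 7.64, 7.35 and 7.002 in contralateral and 8.13, 7.92 and 9.44 in uncrushed nerves, with a log2 fold change of -1.18 ± 0.17, adjusted p = 7.54e-05 and -1.06 ± 0.15, adjusted p = 1.76e-05. Mmp24 was called against uncrushed nerves (-1.47 ± 0.32, adjusted p = 0.00154) and not against contralateral ones (-0.30 ± 0.31, adjusted p = 0.406), and all its values lay in the range of 0.563 to 3.07 CPM.

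Among the remaining MMPs, Mmp19, a protease of basement membrane components, was at 41.9, 48.7, 51.6 and 51.8 CPM in crushed, 10.8, 7.32, 6.65 and 6.90 in contralateral and 9.12, 7.67 and 11.3 in uncrushed nerves. Crushed nerves were separate from all others, with a log2 fold change of 2.49 ± 0.14, adjusted p = 1.5e-08 and 2.63 ± 0.14, adjusted p = 6.07e-10. Mmp28 (epilysin) was at 4.43, 4.41, 4.05 and 3.40 CPM in crushed, 8.71, 12.84, 11.2 and 10.1 in contralateral and 9.57, 9.43 and 8.92 in uncrushed nerves, and fell to below both control groups (-1.09 ± 0.16, adjusted p = 7.88e-05 and -1.38 ± 0.16, adjusted p = 2.48e-06). Mmp23 was called against uncrushed nerves alone (-1.04 ± 0.24, adjusted p = 0.00261), and that call was lost without uncrushed nerve 1, uncrushed nerve 2 or crushed nerve 3 (log2 fold change -0.78, -0.99 and -0.96). Against contralateral nerves it was -0.84 ± 0.23, adjusted p = 0.00563, and it passed without contralateral nerve 4 (-1.01). Mmp12, the macrophage elastase, was lower in crushed than in uncrushed nerves by less than 2-fold (-0.81 ± 0.17, adjusted p = 0.00111) and did not pass against contralateral nerves (-0.26 ± 0.15, adjusted p = 0.125), while the macrophage marker sum was higher in every crushed nerve.

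Among the proteoglycan-cutting ADAMTS genes, Adamts4 and Adamts1 had the largest rises of the tested members after Timp1 and Mmp9. Adamts4 (aggrecanase-1) was at 39.5, 44.99, 43.7 and 41.05 CPM in crushed, 4.54, 3.07, 2.52 and 2.88 in contralateral and 3.52, 2.77 and 3.77 in uncrushed nerves, and its log2 fold change was 3.76 ± 0.13, adjusted p = 3.62e-10 and 3.71 ± 0.14, adjusted p = 1.43e-11. Adamts1, which cuts versican and aggrecan, was at 145, 134, 137 and 126 CPM in crushed, 12.97, 13.9, 10.5 and 11.9 in contralateral and 12.82, 12.4 and 15.6 in uncrushed nerves (3.43 ± 0.11, adjusted p = 2.43e-10 and 3.47 ± 0.10, adjusted p = 1.84e-12). Adamts9, a versican-cutting relative, was at 95.1, 96.6, 104 and 92.8 CPM in crushed, 16.7, 16.7, 16.1 and 12.77 in contralateral and 17.1, 18.5 and 14.8 in uncrushed nerves (2.63 ± 0.11, adjusted p = 1.46e-09 and 2.65 ± 0.10, adjusted p = 1.27e-11). In all of these the crushed nerves stood clear of the uninjured ones. Adamts5 (aggrecanase-2), which neighbours Adamts1 on chromosome 16, was higher by less than 2-fold (0.87 ± 0.10, adjusted p = 1.09e-05 and 0.55 ± 0.09, adjusted p = 4.75e-05). Adamts20 went the other way, at 20.8, 19.4, 18.9 and 14.5 CPM in crushed, 115, 131, 113 and 108 in contralateral and 103, 129 and 114 in uncrushed nerves (-2.54 ± 0.12, adjusted p = 4.58e-09 and -2.65 ± 0.11, adjusted p = 4.43e-11). Adamts15 was lower against uncrushed nerves by less than 2-fold (-0.91 ± 0.13, adjusted p = 7.49e-05), with a log2 fold change of -0.12 ± 0.13, adjusted p = 0.416 against contralateral nerves. Adamts8 was called only against contralateral nerves (2.13 ± 0.27, adjusted p = 5.84e-06), where it was at 0.663, 0.551, 0.906 and 0.618 CPM. Crushed nerves had 2.58, 3.84, 2.85 and 2.65 CPM and uncrushed nerves 2.26, 2.14 and 2.92, which overlapped (0.41 ± 0.24, adjusted p = 0.15).

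Of the procollagen N-proteinases, Adamts14 was at 17.5, 16.8, 13.1 and 12.1 CPM in crushed, 7.48, 5.36, 6.65 and 7.002 in contralateral and 8.76, 7.04 and 6.004 in uncrushed nerves. It was called in both tests (1.11 ± 0.18, adjusted p = 0.000194 and 1.19 ± 0.15, adjusted p = 4.59e-06), and against uncrushed nerves its change was just under 2-fold without crushed nerve 1 (0.99). Adamts2 was higher by less than 2-fold (0.33 ± 0.12, adjusted p = 0.0317 and 0.40 ± 0.12, adjusted p = 0.00886). Among the other ADAMTS genes, Adamts6 fell, from 10.6, 11.6, 10.5 and 9.78 CPM in contralateral and 11.3, 12.3 and 12.01 in uncrushed nerves to 3.46, 4.001, 3.77 and 3.78 in crushed ones (-1.55 ± 0.15, adjusted p = 1.72e-06 and -1.49 ± 0.13, adjusted p = 1.74e-07). Adamts7 and Adamts17 changed by less than 2-fold against contralateral nerves alone (-0.73 ± 0.12, adjusted p = 0.000106 and 0.52 ± 0.18, adjusted p = 0.0231). Adamts10, Adamts12, Adamts13 and Adamts19 passed the test in neither comparison.

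**Figure D3:**
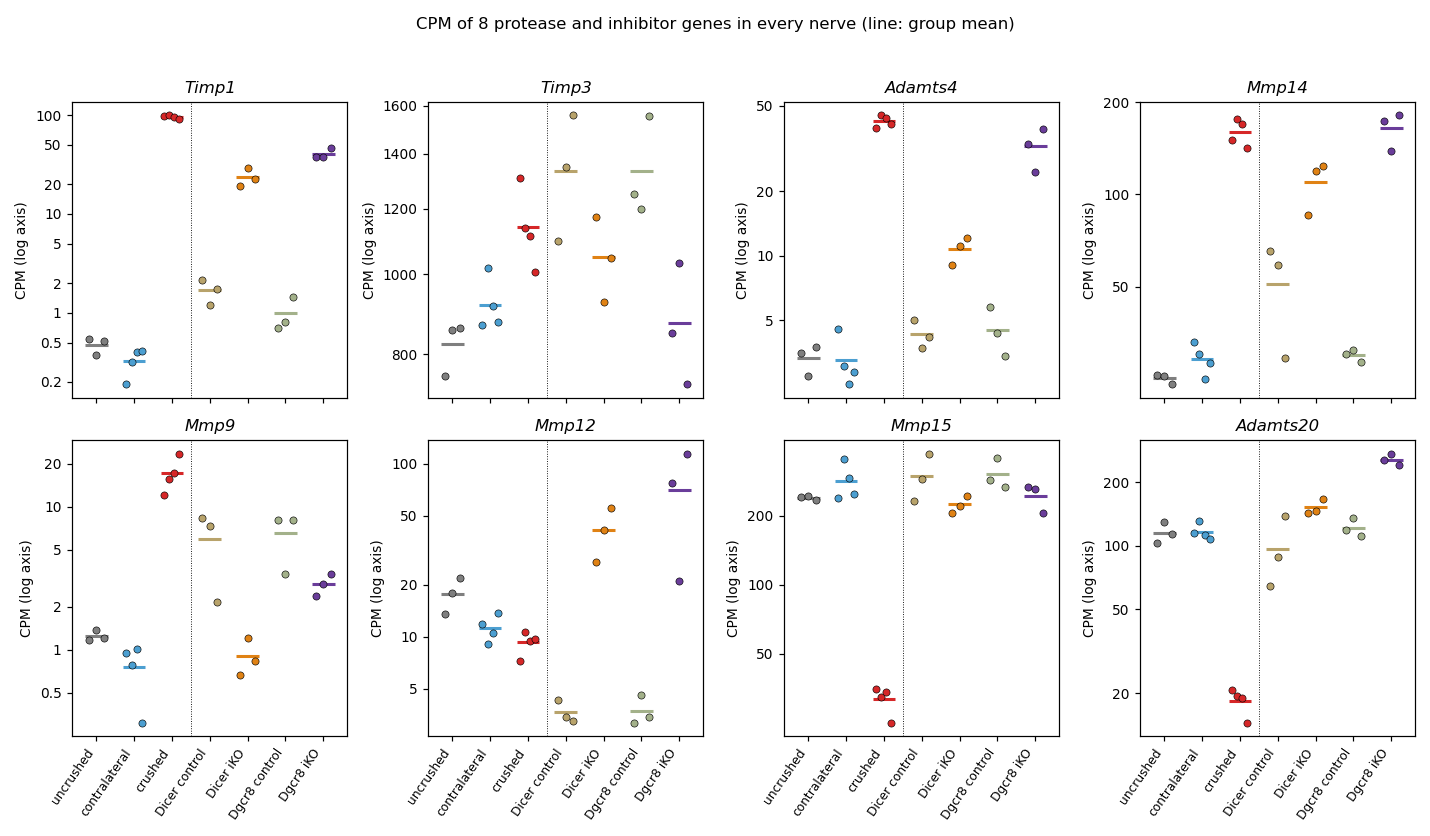
Each point is 1 nerve, on log CPM axes that differ between panels, with lines for group means and a dotted line between the crush and the iKO experiment. Timp1, Adamts4 and Mmp14 are higher in crushed and in mutant nerves, Mmp9 is higher in crushed nerves and lower in each mutant than in its controls, Mmp12 is higher in mutant nerves, and Mmp15 and Adamts20 are lower in crushed than in uninjured nerves.

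Contralateral and uncrushed nerves were compared to see whether the uninjured side of an operated mouse differs. Of 32 members tested, 0 were called, as were 0% of 17722 genes, and by adjusted p alone the share of all genes was again 0%. At an unadjusted p under 0.05 there were 7 members, beside 17.9% of all genes. DESeq2 called 1 member, Adamts8 (log2 fold change -1.82, adjusted p = 0.0232), whose levels in contralateral nerves are given above. Over all genes it called 32 of 17722, each of them lower in contralateral nerves. The same tool gave Adamts15 an adjusted p of 0.00197 at a log2 fold change of -0.87. Adamts15 was at 8.99, 9.77, 8.96 and 12.3 CPM in contralateral and 16.2, 20.9 and 18.2 in uncrushed nerves, which do not overlap (-0.88 ± 0.14, adjusted p = 0.104 by the quasi-likelihood test). Its adjusted p fell under the threshold without contralateral nerve 4, uncrushed nerve 1 or uncrushed nerve 2 (0.0377, 0.0487 and 0.0490), at less than 2-fold each time.

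The second question was how these genes stand in nerves labelled as Dicer iKO or Dgcr8 iKO. In Dicer iKO nerves, 30 members were tested, 11 were upregulated (36.7%) and 2 downregulated (6.67%), where 7.37% and 1.64% of all tested genes were called. By adjusted p alone 14 were higher and 3 lower, beside 12.3% and 8.88% of all genes. In Dgcr8 iKO nerves, 32 members were tested, 20 were upregulated (62.5%) and 2 downregulated (6.25%), where 13.4% and 6.99% of all genes were called. By adjusted p alone 23 were higher and 5 lower, beside 23.9% and 20.6% of all genes. Tested members had a median log2 fold change of 0.66 in Dicer iKO and 1.23 in Dgcr8 iKO nerves, against a median over all genes of -0.01 in both. All 11 members upregulated in Dicer iKO nerves were upregulated in Dgcr8 iKO nerves, an overlap that was not counted over all genes. The counts for Dicer depended on single nerves. Without Dicer iKO nerve 2 the number upregulated was 6, and the number downregulated was 1 without Dicer control nerve 2 or 3 and 0 without Dicer iKO nerve 2 or 3. Over all 13045 genes tested with every nerve, 961 were upregulated and 214 downregulated. These counts were 562 and 61 without Dicer iKO nerve 2, and 515 and 57 without Dicer iKO nerve 3. They were 598 and 106 without Dicer control nerve 2, and 864 and 282 without Dicer control nerve 3. For Dgcr8, 1 was downregulated without Dgcr8 control nerve 3 or Dgcr8 iKO nerve 3. Over all genes, 926 were downregulated with every nerve, 943 without that control nerve and 850 without that mutant nerve.

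Timp1 again rose, with 19.1, 29.01 and 22.6 CPM in Dicer iKO nerves and 2.16, 1.19 and 1.76 in their controls, and 37.5, 37.2 and 46.4 CPM in Dgcr8 iKO nerves and 0.709, 0.817 and 1.45 in theirs. The groups were far apart, with a log2 fold change of 3.78 ± 0.27, adjusted p = 0.00109 for Dicer and 5.29 ± 0.24, adjusted p = 2.87e-07 for Dgcr8. Timp3 was at 1173, 926 and 1046 CPM against 1098, 1351 and 1558 (Dicer) and 849.8, 1033 and 736 against 1249.9, 1201 and 1555 (Dgcr8). It passed the test for Dgcr8 at less than 2-fold (-0.62 ± 0.19, adjusted p = 0.0208) and did not pass for Dicer (-0.35 ± 0.17, adjusted p = 0.177), where 1 mutant nerve overlapped the controls. Timp2, at 459.6, 483 and 515 CPM against 464, 413 and 387 and 451, 418 and 494 against 338, 419 and 373, passed in neither (0.21 ± 0.11, adjusted p = 0.223 and 0.27 ± 0.15, adjusted p = 0.16). Timp4 was at 0 to 0.541 CPM in the 12 nerves and was not tested.

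Mmp12 and Mmp27 of the chromosome 9 group rose in both mutants. Mmp12, the elastase made by macrophages, was at 27.2, 41.6 and 55.3 CPM in Dicer iKO nerves against 4.31, 3.44 and 3.25 in controls, and at 77.1, 20.9 and 114 in Dgcr8 iKO nerves against 3.19, 4.63 and 3.42. Mutants and controls did not overlap, but Dgcr8 iKO nerve 2 was well below the other two, and the log2 fold change was 3.49 ± 0.30, adjusted p = 0.00152 and 4.24 ± 0.55, adjusted p = 0.000118. In the same order of nerves, the macrophage marker sum was 3509.6, 5399 and 6385 CPM in Dicer iKO and 4128, 2269 and 5542 in Dgcr8 iKO nerves, all 6 markers having higher medians in the mutants. Its part in the Mmp12 result was not tested. Mmp12 overlaps Mmp1b on the opposite strand, which had at most 1 count in any nerve. Mmp27 had 0 counts in all 6 controls and 2.26, 5.87 and 4.02 CPM in Dicer iKO and 6.02, 3.15 and 10.9 in Dgcr8 iKO nerves. Taking 3 counts per library as the floor, the mean was at least 9.39-fold higher in Dicer iKO (adjusted p = 0.00713) and at least 16.3-fold higher in Dgcr8 iKO nerves (adjusted p = 0.000187). Mmp8, the neutrophil collagenase in the same group of genes, was called in Dgcr8 iKO nerves, at 3.54, 2.86 and 5.02 CPM against 0.118, 0.409 and 0 (ratio 23.8, 95% counting interval 9.03 to 89.1, adjusted p = 0.000227). Retnlg was at 1.53, 1.91 and 1.40 CPM in these nerves and at 0 in their controls, while Ly6g, Ngp and Camp were at 0 in all Dgcr8 nerves. The neutrophil list summed to 8.62 to 11.6 CPM in Dgcr8 iKO nerves and 25.4 to 61.8 in their controls, with Cxcr2 making up most of it, and its part was not tested. In Dicer iKO nerves Mmp8 was not tested, at 0.533, 2.42 and 2.36 CPM against 0, 0.265 and 0.135.

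Mmp9 was the one member downregulated in both mutants. It was at 0.666, 1.21 and 0.831 CPM in Dicer iKO nerves against 8.34, 7.28 and 2.16 in controls, and at 2.36, 2.86 and 3.39 in Dgcr8 iKO nerves against 8.03, 3.40 and 8.09. All mutant nerves lay below their controls, by a narrow margin in Dgcr8 iKO, and the log2 fold change was -2.71 ± 0.58, adjusted p = 0.0173 and -1.19 ± 0.35, adjusted p = 0.0161. Both calls rested on few nerves. The Dicer call was lost without Dicer control nerve 2, Dicer iKO nerve 2 or Dicer iKO nerve 3 (adjusted p 0.0664, 0.0621 and 0.0843), and the Dgcr8 call without Dgcr8 control nerve 1, Dgcr8 control nerve 3 or Dgcr8 iKO nerve 1 (0.0742, 0.0709 and 0.0602). The other gelatinase, Mmp2, was at 570.3, 659.9 and 666 CPM against 444, 287 and 125 for Dicer, which did not pass although no nerves overlapped (1.15 ± 0.39, adjusted p = 0.0715), and at 520.1, 473 and 543 against 233, 324 and 189 for Dgcr8, which did (1.04 ± 0.19, adjusted p = 0.00118). The Dgcr8 change was under 2-fold without Dgcr8 control nerve 1 (0.99) or 3 (0.87). In the Dicer controls the order of Mmp2 over the nerves was that of the fibroblast, macrophage and mast cell marker sums, and the reverse of the Schwann cell sum. In the Dicer iKO nerves Mmp2 did not follow the fibroblast sum (7405, 7322 and 7790 CPM). The part of any of these cell types was not tested.

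Membrane-bound and other MMPs that had risen after crush rose here too. Mmp14 was at 85.4, 119.7 and 124 CPM in Dicer iKO nerves against 65.4, 59.02 and 29.2, and at 173, 139 and 181 in Dgcr8 iKO nerves against 30.2, 31.1 and 28.3 (1.10 ± 0.29, adjusted p = 0.0331 and 2.46 ± 0.14, adjusted p = 1.02e-06). Mmp17 was at 38.6, 51.1 and 47.2 CPM against 8.05, 22.5 and 17.04 and at 70.95, 57.9 and 33.9 against 25.2, 23.6 and 25.4 (1.52 ± 0.32, adjusted p = 0.0164 and 1.13 ± 0.22, adjusted p = 0.00189). Mmp19 was at 45.7, 59.05 and 52.1 CPM against 30.5, 26.2 and 19.1 and at 50.9, 38.95 and 43.7 against 16.2, 18.7 and 10.9 (1.05 ± 0.18, adjusted p = 0.00914 and 1.55 ± 0.19, adjusted p = 9.38e-05). Mutants and controls were separate for each of these genes, for Dicer as for Dgcr8. The Dicer call of Mmp14 was lost without Dicer control nerve 2 or 3 or Dicer iKO nerve 2 or 3, that of Mmp17 without Dicer iKO nerve 2 or 3, and that of Mmp19 without Dicer control nerve 3 or Dicer iKO nerve 2. Without Dgcr8 iKO nerve 1 the Dgcr8 change of Mmp17 was under 2-fold (0.89). Mmp16 rose in Dgcr8 iKO nerves (1.22 ± 0.29, adjusted p = 0.00602), where 1 of 3 nerves was close to the controls (12.9, 12.7 and 6.19 CPM against 5.08, 3.81 and 4.67), and had a log2 fold change of -0.06 ± 0.22, adjusted p = 0.855 in Dicer iKO nerves. Mmp23 rose in Dgcr8 iKO nerves (1.36 ± 0.17, adjusted p = 8.13e-05) and was higher by less than 2-fold in Dicer iKO nerves (0.93 ± 0.18, adjusted p = 0.0135), where it passed 2-fold without Dicer control nerve 2, Dicer iKO nerve 1 or Dicer iKO nerve 3 (1.03, 1.01 and 1.01). Mmp15 did not pass in either mutant (-0.41 ± 0.18, adjusted p = 0.136 and -0.31 ± 0.16, adjusted p = 0.139), nor did Mmp28 (-0.58 ± 0.21, adjusted p = 0.0905 and 0.15 ± 0.21, adjusted p = 0.593).

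Of the 7 proteoglycan-cutting ADAMTS genes, 6 were upregulated in Dgcr8 iKO nerves, and 2 of 6 tested in Dicer iKO nerves. Adamts4 was at 9.06, 11.1 and 12.1 CPM in Dicer iKO nerves against 5.03, 3.71 and 4.19, and at 33.3, 24.6 and 39.00 in Dgcr8 iKO nerves against 5.79, 4.36 and 3.42 (1.31 ± 0.22, adjusted p = 0.00772 and 2.83 ± 0.24, adjusted p = 8.27e-06). Adamts15 was at 37.97, 48.5 and 48.2 CPM against 23.7, 26.2 and 15.4 and at 49.00, 42.6 and 45.4 against 13.4, 21.5 and 20.7 (1.04 ± 0.21, adjusted p = 0.0133 and 1.30 ± 0.17, adjusted p = 0.000151). No mutant nerve overlapped the controls for either gene, but the Dicer call of Adamts15 was lost without Dicer control nerve 3 or Dicer iKO nerve 2 or 3 (log2 fold change 0.84, 0.999 and 0.998, adjusted p 0.00822, 0.0622 and 0.0661). Adamts1 was at 55.96, 55.9 and 69.6 CPM in Dgcr8 iKO nerves against 19.6, 25.6 and 24.1 (1.39 ± 0.15, adjusted p = 3.29e-05), while its Dicer iKO values of 48.8, 45.2 and 45.7 lay within the wide range of the controls, 87.7, 54.4 and 28.8 (-0.29 ± 0.34, adjusted p = 0.581). Adamts9 and Adamts20 were called for Dgcr8 (1.23 ± 0.17, adjusted p = 0.000223 and 1.07 ± 0.13, adjusted p = 7.77e-05). For Dicer, Adamts9 was higher by less than 2-fold (0.67 ± 0.17, adjusted p = 0.0278) and Adamts20 did not pass (0.65 ± 0.25, adjusted p = 0.103). Adamts8 was near the floor in controls and at 7.44, 14.5 and 17.98 CPM in Dgcr8 iKO nerves (ratio 68.3, 95% counting interval 28.99 to 212, adjusted p = 7.56e-06). In Dicer iKO nerves it was at 0.533, 5.01 and 5.13 CPM and was not tested. Adamts5 fell in Dicer iKO nerves, from 136, 168 and 205 to 90.99, 78.7 and 82.99 CPM (-1.01 ± 0.16, adjusted p = 0.00593), a change that was under 2-fold without Dicer control nerve 3 (-0.85) or Dicer iKO nerve 2 (-0.95) or 3 (-0.99). It was lower by less than 2-fold in Dgcr8 iKO nerves (-0.63 ± 0.15, adjusted p = 0.00478).

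Adamts2, which trims fibrillar procollagens, was at 187, 231 and 231 CPM in Dicer iKO nerves against 116, 86.8 and 34.9 in controls, and at 162, 143 and 178 in Dgcr8 iKO nerves against 31.7, 37.9 and 28.4. Mutants were above controls in both, with a log2 fold change of 1.45 ± 0.37, adjusted p = 0.0302 and 2.31 ± 0.15, adjusted p = 1.88e-06, and the Dicer call was lost without Dicer control nerve 2 or Dicer iKO nerve 2 or 3 (adjusted p 0.0911, 0.101 and 0.109). Adamts14 was higher in Dgcr8 iKO nerves by just under 2-fold (0.98 ± 0.21, adjusted p = 0.00295), and by more without Dgcr8 control nerve 2 (1.27) or Dgcr8 iKO nerve 1 (1.09). Adamts17 was at 9.33, 15.4 and 15.4 CPM against 3.31, 3.44 and 3.25 for Dicer and 34.7, 26.9 and 17.9 against 8.51, 8.03 and 6.12 for Dgcr8, without overlap (1.996 ± 0.26, adjusted p = 0.00364 and 1.81 ± 0.25, adjusted p = 0.000169). Adamts19, an ADAMTS without a well defined substrate, was at 8.26, 13.5 and 7.62 CPM against 2.30, 1.06 and 0.676 and at 4.37, 9.26 and 5.49 against 1.77, 2.18 and 2.49, again without overlap (2.85 ± 0.44, adjusted p = 0.00615 and 1.57 ± 0.34, adjusted p = 0.00313). Adamts7 was called for Dgcr8 (1.27 ± 0.17, adjusted p = 0.000131) and passed the test at less than 2-fold for Dicer (0.94 ± 0.25, adjusted p = 0.0332), where it was above 2-fold without Dicer control nerve 3 (1.14) or Dicer iKO nerve 1 (1.06). Adamts6 fell in Dgcr8 iKO nerves, from 21.98, 19.7 and 22.3 to 9.56, 12.6 and 8.29 CPM (-1.07 ± 0.18, adjusted p = 0.000732), by less than 2-fold without Dgcr8 iKO nerve 3 (-0.94). In Dicer iKO nerves it was lower by less than 2-fold (-0.57 ± 0.16, adjusted p = 0.0405). Adamts13, which cuts von Willebrand factor, was just under 2-fold lower in Dgcr8 iKO nerves (-0.99 ± 0.21, adjusted p = 0.00239), and past it without Dgcr8 control nerve 1 or 2 or Dgcr8 iKO nerve 1 (-1.01, -1.01 and -1.21). Adamts12 and Mmp11 were higher there by less than 2-fold (0.81 ± 0.25, adjusted p = 0.0217 and 0.94 ± 0.27, adjusted p = 0.0149). Adamts12 passed 2-fold without Dgcr8 control nerve 2 (1.15), and Mmp11 without that nerve (1.002) or Dgcr8 iKO nerve 2 (1.13) or 3 (1.04).

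**Figure D4:**
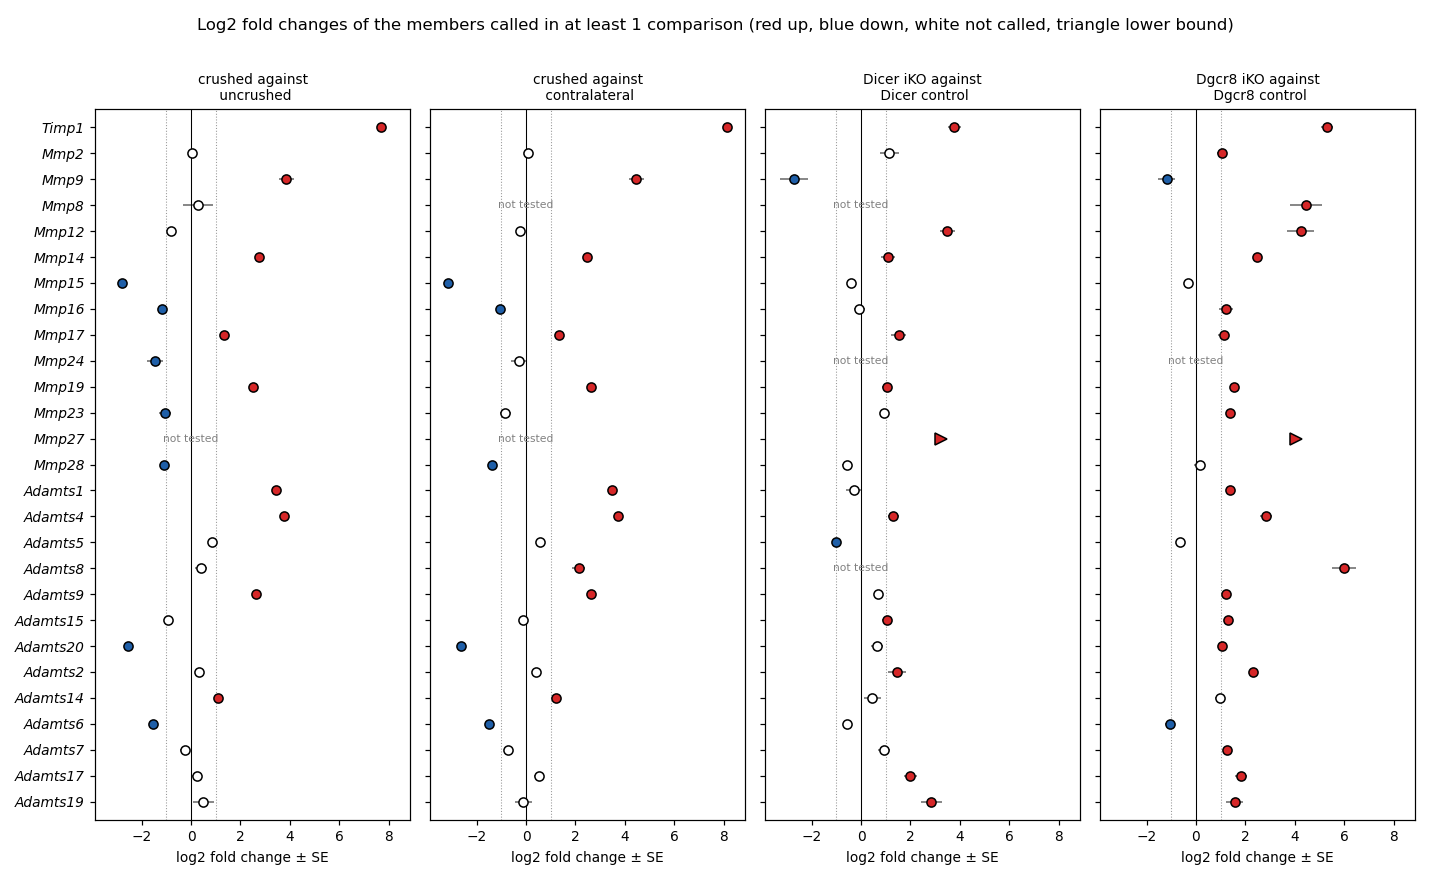
Points are log2 fold changes with SE for the 27 members called in at least 1 comparison, ordered by role, with dotted lines at 2-fold. Red members were upregulated, blue downregulated and white not called. The triangles for Mmp27 are lower bounds, since its controls had 0 counts. Both crush panels show rises and falls, while 20 of the 22 called members in the Dgcr8 iKO panel are red.

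More members were called for Dgcr8 than for Dicer, so the difference of both effects was tested over all 12 nerves. None of 32 members differed at an adjusted p of at most 0.05 (edgeR's quasi-likelihood test of the interaction), where 2 of 13552 genes did (0.0148%). At an unadjusted p under 0.05 there were 7 members. The largest p of these 7, 0.0490 for Adamts19 in the same test, ranked 1836 among the 13552 genes. At least 1836 of all genes thus had an unadjusted p under 0.05. The 9 members upregulated for Dgcr8 alone, and Adamts6, downregulated for Dgcr8 alone, are thus not shown to differ between the mutants. The outcome changed with 1 nerve and with the tool. Without Dicer control nerve 3, 320 of 13791 genes had a larger and 81 a smaller log2 fold change for Dgcr8 at the same threshold. Among these were 4 members, all with the larger rise in Dgcr8 iKO nerves, namely Adamts1 (difference of log2 fold changes 1.997, adjusted p = 0.00377), Mmp14 (1.64, 0.00414), Adamts2 (1.21, 0.0153) and Adamts4 (1.54, 0.0433). DESeq2 on all nerves gave 168 and 64 of 13552 genes in these 2 directions. They included 3 members, Adamts1 (1.69, adjusted p = 0.00816), Adamts4 (1.54, 0.0126) and Mmp14 (1.37, 0.0143). In the quasi-likelihood test on all nerves the differences were 1.68 ± 0.40, adjusted p = 0.144 for Adamts1, 1.52 ± 0.33, adjusted p = 0.141 for Adamts4, 1.36 ± 0.34, adjusted p = 0.154 for Mmp14 and 0.86 ± 0.42, adjusted p = 0.401 for Adamts2.

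Placed side by side, 5 members were upregulated in both crush comparisons and in both mutants, namely the inhibitor Timp1, the proteoglycanase Adamts4 and the MMPs Mmp14, Mmp17 and Mmp19. Their log2 fold changes ranged from 1.05 (Mmp19 in Dicer iKO) to 8.16 (Timp1 in crushed against contralateral nerves). Mmp9 was upregulated in both crush comparisons and downregulated in both mutants. Adamts1 and Adamts9 were upregulated, and Adamts6 downregulated, in both crush comparisons and in Dgcr8 iKO nerves, without a call in Dicer iKO nerves. Adamts20 and Mmp16 were downregulated in both crush comparisons and upregulated in Dgcr8 iKO nerves. Mmp12, Mmp27, Adamts2, Adamts15, Adamts17 and Adamts19 were upregulated in both mutants and in no crush comparison, where Mmp27 was not tested. The reverse held for Adamts14, upregulated in both crush comparisons, and for Mmp15 and Mmp28, downregulated in both. None of these was called in the mutants. The experiments differ in library kit, age and time, and the difference between injury and mutation was not tested. How many of all genes shared calls in these ways was not counted, so the overlaps have no background share. The paper reports that most genes induced in both mutants were also induced by the crush.

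Other genes of the pathway, none of them members, were taken from 3 lists. Their counts stand beside the shares of all tested genes given above, 15.3% (up) and 21.1% (down) with uncrushed controls, 14.6% and 13.6% with contralateral ones, 7.37% and 1.64% for Dicer and 13.4% and 6.99% for Dgcr8. Of 13 regulators, 12 were tested in the crush comparisons, with 2 upregulated, a share near that of all genes, and 4 downregulated in each. Cd44, a surface receptor that can hold MMP9, rose (4.42 against uncrushed, 4.22 against contralateral nerves, log2), as did Furin (1.54 and 1.21), which removes the propeptide of MMP14 and many ADAMTS proteases. Reck, a membrane-anchored MMP inhibitor, fell (-1.67 and -1.78), along with the ADAMTS-like genes Adamtsl2, Adamtsl3 and Adamtsl5. In the mutants 1 regulator was upregulated for Dicer (Cd44, 2.25), and 3 were upregulated and 1 downregulated for Dgcr8 (Cd44 2.95, Papln 1.40, A2m 1.24 and Adamtsl2 -1.73). Of the related ADAM proteases, 11 of 12 were tested in each comparison. Upregulated were 3 in each crush comparison, 4 in Dicer iKO and 7 in Dgcr8 iKO nerves, and 3 were downregulated against uncrushed and 2 against contralateral nerves. The highest fold changes were those of the leukocyte protease Adam8 (3.83, 4.04, 5.20 and 4.82). Adam17, the sheddase of TNF, was upregulated in both mutants (1.32 and 1.48). Of 9 ADAMTS substrates, 7 were tested in each crush comparison, with 2 up in both and 1 down against uncrushed nerves. In the mutants 2 of 6 tested were upregulated for Dgcr8 and 0 of 5 for Dicer. By adjusted p alone 4 were higher and 1 lower for Dgcr8, beside 23.9% and 20.6% of all genes. For Dicer 2 were higher and 0 lower, beside 12.3% and 8.88%. Versican (Vcan, 2.11 and 1.92) and biglycan (Bgn, 1.32 and 1.61) rose after crush, and biglycan (2.22) and brevican (Bcan, 2.70) in Dgcr8 iKO nerves.

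A total of 11 members were never tested in the crush and 13 in the iKO experiment because their counts did not pass the filter. Mmp1b, Mmp3, Mmp7, Mmp10, Mmp13, Mmp20, Mmp21, Mmp25, Adamts16 and Timp4 belonged to both groups, with no value above 1.14 CPM in the crush or 1.91 CPM in the iKO experiment. Mmp27 was added in the crush, and Mmp24, Adamts3 and Adamts18 in the iKO experiment. Changes in these genes were not tested, although some groups were apart. Mmp25 was at 0.805, 0.980, 0.919 and 1.13 CPM in crushed, 0, 0.158, 0.201 and 0.309 in contralateral and 0.271, 0.126 and 0.172 in uncrushed nerves, on 10 to 12 counts per crushed nerve and 0 to 3 per uninjured nerve. Mmp21 was at 0.161, 0.163, 0.0919 and 0.189 CPM in crushed and 0.813, 0.503 and 1.03 in uncrushed nerves, and Adamts16 at 0.354, 1.91 and 0.584 CPM in Dgcr8 iKO nerves and at 0 in their controls.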

How the data were processed

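RNA sequencing libraries of mouse SNs were analysed in 7 groups, 11 libraries from the crush and 12 from the iKO experiment. According to the methods, Trimmomatic was used by the authors for trimming, STAR for alignment to GRCm38 and RSEM for quantification of Ensembl transcripts. The deposited values per transcript are expected counts (estimated counts, not normalized), TPM and FPKM as RSEM scales them. For every test, a gene's expected counts were added up and rounded. The deposited TPM values were not used, although planned for levels per length: transcripts under 200 bases held 85.2% to 93.6% of the TPM sum in the crush libraries but 1.66% to 4.65% of the counts. The deposited FPKM values, summed per gene by the same rule, took their place. By the labels, the crush libraries were made with a SMARTer pico-input kit and the iKO libraries with TruSeq and Ribo-Zero, whereas the methods describe TruSeq for both. One uncrushed library is replicate 3 by title and 4 by description, and the title was used. The Ensembl release and the strand setting of the counting are not given in the sources used here. Timp1, Timp3 and Timp4 lie within the Syn1, Syn3 and Syn2 genes, on the opposite strand, and reads of overlapping genes may not be fully separated.

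Each pair of groups was fitted by edgeR 4.0.16 in R 4.3.3 (limma 3.58.1): filterByExpr with a minimum count of 10, TMM, quasi-likelihood F test, BH adjustment over all genes tested, adjusted p of at most 0.05 and a fold change of at least 2. The interaction used the 12 iKO libraries and the adjusted p alone. SEs were obtained from the F statistic (log2 fold change over its root). CPM was TMM-scaled within each experiment. Counting intervals are exact and binomial, at 95%. The test was tested on simulated data. Alternatives were RLE, no filter, protein-coding genes only, DESeq2 1.42.0, all groups in one fit, a replicate block, no fold limit, and leaving out each replicate. Positions and gene types come from GENCODE M21. No pair of libraries was a copy of another. Members and lists were chosen with earlier results of these data known. Genes given in full were the Timp genes and the members called in both crush or both iKO comparisons. Other called members are given by fold change, the rest by name.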

Additional observations from a re-analysis of the deposited data

Results flagged for a closer look

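Among the 57 sets of 4 crushed or contralateral nerves that were examined for a nerve far from the others (members that passed the test in some comparison and TIMPs, with a mean of at least 1 CPM), 4 had one by Dixon's criterion, and chance alone marks about 1 in 20. For Mmp2, crushed nerve 1 was at 93.4 CPM and the other 3 at 135.7 to 140.4 (gap over range 0.901). The same nerve had the lowest macrophage marker sum of its group. For Adamts5, contralateral nerve 4 was at 119 CPM and the others at 137 to 138 (0.943). For Adamts9, that nerve was at 12.8 CPM and the others at 16.1 to 16.7 (0.851). For Mmp19, contralateral nerve 1 was at 10.8 CPM and the others at 6.65 to 7.32 (0.836). Against contralateral nerves, Adamts9 and Mmp19 were upregulated, and Adamts5 was higher by less than 2-fold, whichever single nerve was left out.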

How the results depend on the processing

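Each count of members was recomputed under 6 settings, without a fold limit, and without each nerve. Without a fold limit, 8 members were lower against contralateral nerves (5 with it) and 5 in Dgcr8 iKO nerves (2 with it). Contralateral against uncrushed nerves gave 1 downregulated member with DESeq2 (32 of 17722 genes) and 1 without the filter on counts (128 of 36953 genes). The interaction gave 3 members with DESeq2, beside 168 and 64 of 13552 genes with a larger and a smaller log2 fold change for Dgcr8. Equal replicate numbers were not shown to pair the nerves: the mean correlation of same-numbered deviations was between -0.0598 and 0.0527 over the 5 comparisons, and not every pair exceeded 0.1. The highest mean was that of crushed and contralateral nerves (0.0527, against -0.0176 for unequal numbers). With 3 or 4 such pairs per comparison, these correlations cannot exclude shared mice. With the replicate number as a block, 8 members were upregulated (11 without the block) and 1 downregulated (2) in Dicer iKO nerves, where over all genes 548 were upregulated (961) and 92 downregulated (214). Of 89 single gene results 5 lost their call under the block, Adamts2, Adamts5, Adamts15 and Mmp14 for Dicer (log2 fold change 1.59, -0.99, 1.07 and 1.15, adjusted p 0.0721, 0.0410, 0.0513 and 0.0913) and Mmp23 against uncrushed nerves (-0.998), and Adamts13 and Adamts14 gained one for Dgcr8 (-1.01 and 1.004). Leaving out 1 nerve, the upregulated members numbered 8 to 10 against uncrushed, 10 to 11 against contralateral, 6 to 15 in Dicer iKO and 19 to 23 in Dgcr8 iKO nerves. The downregulated members numbered 6 to 7, 5 to 6, 0 to 2 and 1 to 3 in the same order, the interaction 0 to 4, and contralateral against uncrushed 0 throughout. Over all genes and in that order, 2498 to 2891, 2282 to 2536, 515 to 1093 and 1713 to 1862 were upregulated. Downregulated were 3210 to 4024, 2302 to 2645, 57 to 375 and 850 to 1100. No log2 fold change of these 89 reversed under any setting. RLE and DESeq2 changed 0 calls, all groups in one fit 1, protein-coding genes only 2 and no filter 5. The last setting and the fit of all groups test other sets of genes, and the median of all genes against uncrushed was then -0.385 and -0.205. Depth limits the members under about 2 CPM.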
